A study of Mus musculus with 9 samples.

Results

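Cadherins and protocadherins were examined in RNA of neuronal nuclei from the mouse hippocampus. The members are the genes whose mouse symbol is Cdh or Celsr followed by a number, or starts with Pcdh, without Cdh24. They number 95 of the 48709 genes in the files, namely 58 clustered protocadherins on chromosome 18 and 37 others. Nuclei were prepared from frozen hippocampal tissue, and those positive for the neuronal protein NeuN were sorted and their RNA sequenced. Of the 9 libraries, 3 were of vehicle-treated WT mice, 3 of vehicle-treated Tg4-42 mice and 3 of caffeine-treated Tg4-42 mice, all on the C57BL/6J background. Tg4-42 mice overexpress human Aβ4-42, fused to a secretion signal of the murine TRH precursor, in neurons under the murine Thy1 promoter, and lose CA1 pyramidal neurons with age. Caffeine was given in the drinking water at 300 mg/l for 4 months from 2 months of age, vehicle was plain drinking water, and all mice were 6 months old at the end. No caffeine-treated WT mice were among these libraries, so a caffeine effect without the transgene was not measured. A treatment is named only in the labels of caffeine libraries, the vehicle group following from genotype and study design. The labels also name 6 animals per group for the isolation of nuclei against 3 libraries per group, so p-values measure the spread between these libraries.

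Library totals ranged from 9342945 to 16376922 counts, at which 3 counts correspond to 0.189 to 0.324 CPM (counts of a gene relative to the TMM-scaled library total). This detection floor covers counting error only. Mice were numbered in accession order, and mice 1 and 2 of each group were on sequencing lane 6 and mouse 3 of each group on lane 7. The summed level of 4 neuronal markers, among them Rbfox3, which encodes NeuN, was 5249 to 7687 CPM. Glial RNA was also present, with 267 to 522 CPM over 10 oligodendrocyte markers, 141 to 278 CPM over 8 astrocyte markers and 44.7 to 81.4 CPM over 8 microglial markers. The 3 endothelial markers Cldn5, Flt1 and Pecam1 summed to 0.324 to 1.29 CPM.

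Cadherins are calcium-dependent adhesion receptors built from repeated extracellular domains. Classical type I and type II cadherins bind their own kind on the opposite membrane and hold on to actin through catenins, and they mark which neurons and synaptic layers adhere to each other. Protocadherins carry similar repeats but no catenin-binding tail. The non-clustered (delta) protocadherins steer axon growth and cell sorting, partly through the actin-nucleating WAVE complex. The clustered protocadherins lie in an alpha, a beta and a gamma array. Each neuron switches on a small, largely random set of their promoters together with some of the C-type genes at the array ends, and the mixture lets a neuron recognise and avoid its own branches. The genes of the alpha array share constant exons, as do those of the gamma array, so that a count here is a count on a gene's own exons. Celsr proteins are large cadherins with several membrane passes and an adhesion GPCR tail that direct axon tracts and planar polarity.

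Of the 95 members, 84 passed edgeR's filter on low counts and were tested, 54 of them clustered and 30 others. At least 10 counts in every library of a group were reached by 83 members. The 11 untested members were Pcdha4, Pcdhb1, Pcdhga10, Pcdhgb8, Pcdh12, Cdh1, Cdh3, Cdh5, Cdh16, Cdh17 and Cdh26. Cdh1, the E-cadherin of epithelia, lay between 0 and 0.0802 CPM, and Cdh5, the cadherin of vascular endothelium, between 0 and 0.0802 CPM. Pcdhga10 had 0 counts in all 9 libraries, and the annotation gives it 0 exonic bases that no other gene shares. The symbol Pcdha11 is carried by 2 identifiers in the annotation, which were kept apart.

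In WT mice Pcdh9, a delta protocadherin, was the most abundant member per kb of own exons, at 420 ± 54.2 CPM per kb (SD, n = 3). In CPM it reached 2998, 2427 and 3114 in the 3 WT mice, against a sum over all 95 members of 6313 ± 393 CPM (SD, n = 3). Pcdh20 followed at 74.2 ± 17.5, then Cdh9 at 45.7 ± 4.63, Cdh8 at 32.7 ± 0.81, Cdh12 at 24.7 ± 2.01 and Cdh11 at 20.4 ± 1.15 CPM per kb (SD, n = 3). The ranges of neighbours in this order did not overlap from Pcdh9 down to Cdh11. Below Cdh11 they did: Pcdhac2 at 19.4, Pcdh7 at 18.3, Pcdhgc5 at 16.7 and Pcdhb9 at 16 CPM per kb could not be ordered beyond the spread of 3 mice. With the whole exonic length, constant exons included, Pcdhac2 and Pcdhgc5 moved to ranks 17 and 16.

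The comparison of caffeine-treated with vehicle-treated Tg4-42 mice addressed what chronic caffeine changed in the transgenic neurons. Of the 84 tested members, 7 were called differentially expressed, and all were lower after caffeine: Cdh2, Cdh4, Cdh10, Cdh13, Cdh18, Pcdh18 and Pcdhac2. They decreased by 32.7% (Cdh2) or more, with adjusted p between 0.0385 and 0.0493 (edgeR's quasi-likelihood F test, Benjamini-Hochberg over all tested genes). Among all 17361 tested genes 0.881% were called, and 0.668% were called lower. The fold change was below 0 for 69 of the 84 members, with a median of -0.42 on the log2 scale, while the median of all tested genes was -0.01. An unadjusted p under 0.05 was found for 38 members with a lower value, where 9.82% of all tested genes had one, and for 1 member with a higher value, Celsr3, where 7.15% of all tested genes had one. In 38 of the 84 members (45.2%) every caffeine-treated mouse lay below every vehicle-treated Tg4-42 mouse, which was the case for 12.6% of all tested genes.

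**Figure D1:**
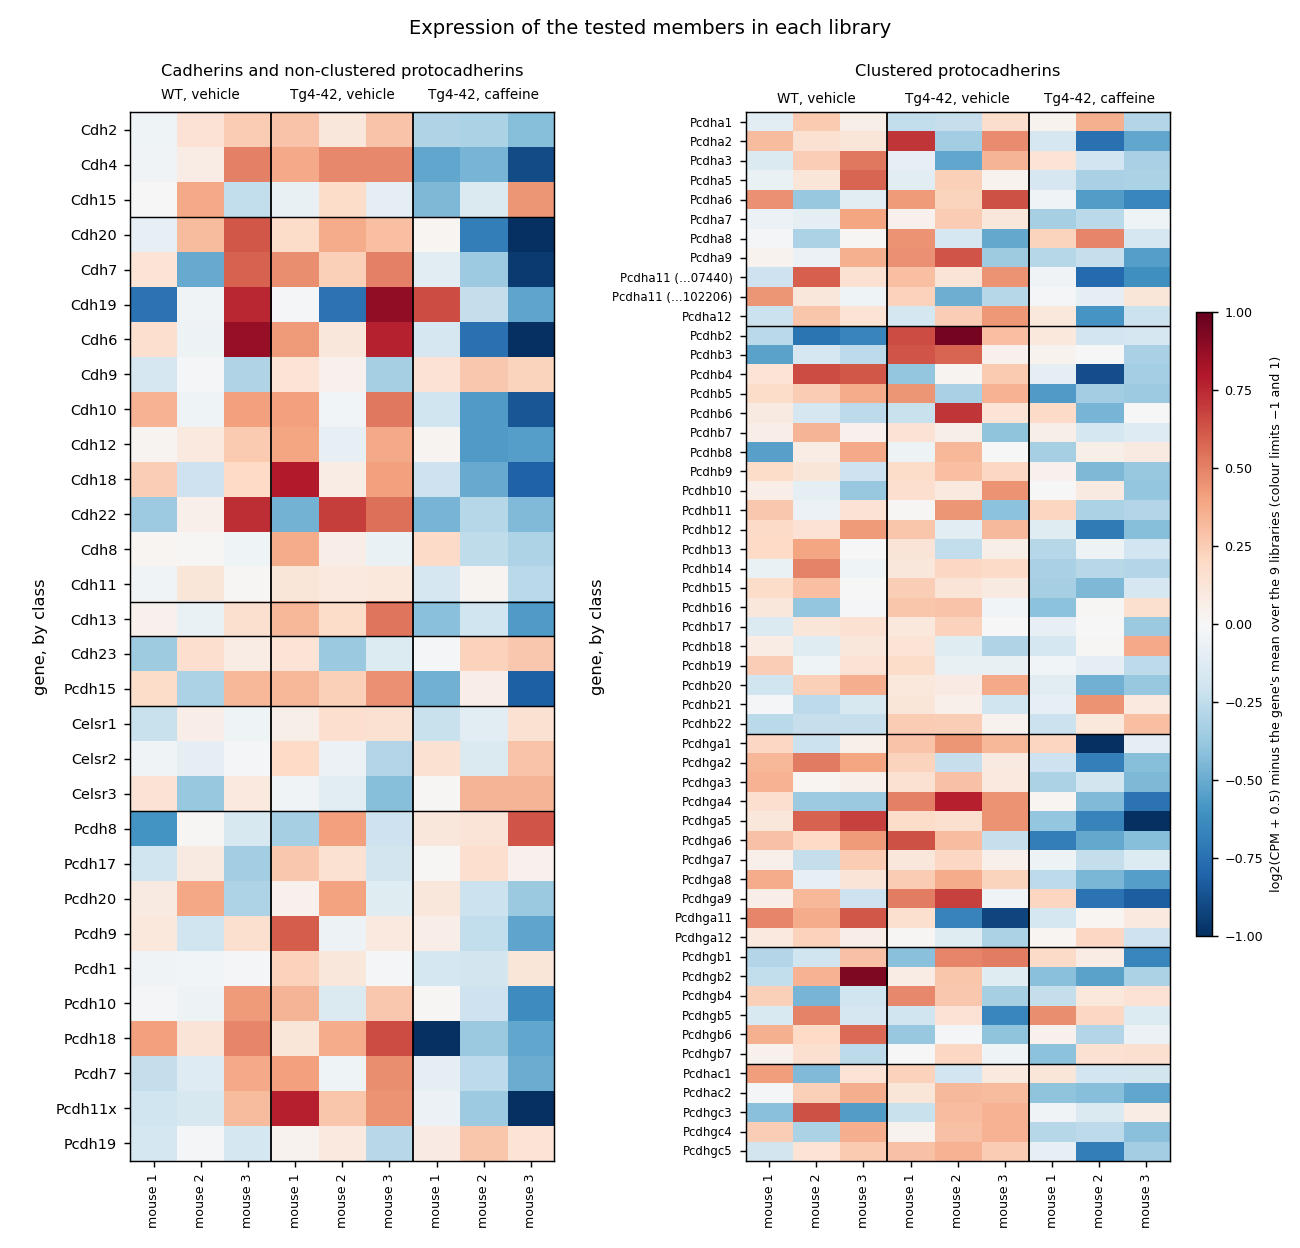
Heat map of the 84 tested members (rows, by class) in the 9 libraries (columns). Colour gives log2(CPM + 0.5) minus the mean of the gene over the 9 libraries, and the caffeine columns are mostly below the mean of the gene, with Cdh9, Celsr3, Pcdh8 and Pcdh19 among the exceptions.

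The lower values were present in each caffeine-treated mouse. Against the mean of the vehicle-treated Tg4-42 mice, the median log2 difference over the members was -0.28, -0.39 and -0.47 in the 3 caffeine-treated mice, and that of all tested genes between -0.01 and 0.00. With lane as a covariate 0 members were called (39 at an unadjusted p under 0.05), while the folds of the 7 genes stayed between -1.15 and -0.57 with adjusted p from 0.0554 to 0.0669, and 0.0518% of all tested genes were called. On lane 6 alone, where 2 mice of each group remain, 0 members (21 at an unadjusted p under 0.05) and 0 of all tested genes were called. The main fit had 39 members (46.4%) and 17.0% of all tested genes at that unadjusted threshold. For the other fits the share of all genes at it was not counted. Calls also depended on single mice, for members and for all tested genes alike: without caffeine-treated mouse 3, vehicle-treated mouse 1 or vehicle-treated mouse 3 no member and 0, 3 and 0 of all genes were called, without caffeine-treated mouse 2 they were 2 members and 58 genes, and without caffeine-treated mouse 1 they were 15 members and 341 genes. DESeq2 called 18 members and 2.42% of the genes it fitted. In a library of mixed nuclei, fewer cells of a type and less RNA per cell cannot be told apart.

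Cell type markers moved along with the members in this comparison. All 12 interneuron markers had lower values after caffeine (9 at an unadjusted p under 0.05), their median log2 fold change was -0.47, and their summed level was 1114 to 1683 CPM in vehicle-treated and 821 to 1044 CPM in caffeine-treated Tg4-42 mice. All 14 dentate granule cell markers had higher values (9 at an unadjusted p under 0.05), with a median of 0.67 and sums of 568 to 1100 against 1166 to 1529 CPM. Of these, edgeR called Plk5 (adjusted p = 0.0385) and Stxbp6 (adjusted p = 0.0399) higher. Of the interneuron markers it called Slc32a1 lower (adjusted p = 0.0462). Of the 8 markers of subiculum and neocortex neurons, 6 were lower, with sums of 266 to 347 against 167 to 268 CPM. Of the 7 CA1 markers, 6 were lower (median -0.13, 2 at an unadjusted p under 0.05), and Pou3f1 was higher (0.70, unadjusted p = 0.0381, edgeR). The CA1 sums were 542 to 653 against 494 to 523 CPM. Lower values were also found for 7 of 8 astrocyte markers (median -0.76), 9 of 10 oligodendrocyte markers (median -0.34) and 8 of 8 microglial markers (median -0.56). The sums of the 5 CA2 markers (185 to 224 against 203 to 237 CPM) overlapped, and 2 of the 3 oligodendrocyte precursor markers were testable, at sums of 2.59 to 5.61 against 2.61 to 3.96 CPM. Of the 6 CA3 markers 4 had higher values (median 0.16), while their sums were 290 to 362 against 232 to 267 CPM, with Spock1, called lower (adjusted p = 0.0385, edgeR), at means of 165 and 88.5 CPM. No marker had 0 counts in all libraries. Many cadherins differ between these cell types, and the part of the markers in the results below was not tested.

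**Figure D2:**
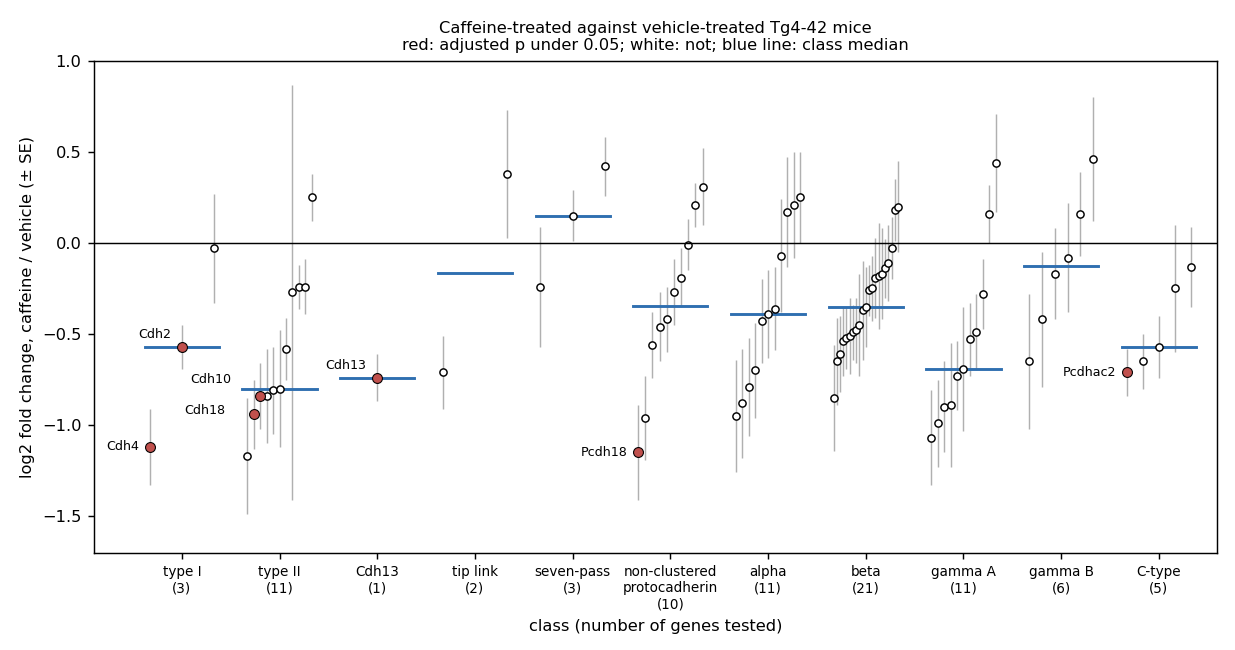
Log2 fold change of each tested member between caffeine-treated and vehicle-treated Tg4-42 mice (points) with its SE (bars), by class, with the number of genes tested under each class name. Red points passed the adjusted threshold, blue lines are class medians, and the medians run from -0.80 in type II cadherins to 0.15 in Celsr genes.

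Among the classical type I cadherins, Cdh2 and Cdh4 were lower after caffeine. Cdh2 (ENSMUSG00000024304, chromosome 18) encodes N-cadherin, the main cadherin of synaptic junctions. It stood at 109, 97.1 and 109 CPM in the 3 vehicle-treated Tg4-42 mice and at 72.8, 71.8 and 66.7 CPM in the 3 caffeine-treated mice, with 86.9, 99.1 and 107 CPM in WT mice. All caffeine-treated mice lay below all mice of both vehicle groups, and the log2 fold change against vehicle-treated Tg4-42 mice was -0.57 ± 0.12 (SE), adjusted p = 0.0399 (edgeR). Cdh4 (ENSMUSG00000000305, chr2:179442431-179899373, + strand) encodes R-cadherin, which can pair with N-cadherin. Its values were 12.2, 13.1 and 13.1 CPM after vehicle and 6.31, 6.56 and 4.76 CPM after caffeine, with 9.01, 9.78 and 13.3 CPM in WT mice. Again the caffeine-treated mice were the lowest of all, and Cdh4 fell by 54.1% against vehicle-treated Tg4-42 mice (log2 fold change -1.12 ± 0.21, adjusted p = 0.0385, edgeR). Cdh15, the muscle cadherin and the only other type I gene tested, was at 3.82 and 3.77 CPM on average in the same groups.

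Type II cadherins, which sort neurons into layers and synaptic partners, had the lowest class median, -0.80 over 11 tested genes, of which 10 had lower values and 7 an unadjusted p under 0.05. Cdh10 and Cdh18 passed the adjusted threshold. Cdh10 (ENSMUSG00000022321, chr15:18818947-19014236, + strand) had 168, 124 and 183 CPM after vehicle and 110, 85.2 and 69.9 CPM after caffeine, with 161, 123 and 168 CPM in WT mice. The highest caffeine-treated mouse stayed below the lowest mouse of either vehicle group, and the log2 fold change was -0.84 ± 0.18 (adjusted p = 0.0469, edgeR). Cdh18 (ENSMUSG00000040420, chr15:22549022-23474418, + strand) had 79.5, 48.2 and 61.1 CPM after vehicle, 39.6, 32.2 and 25.9 CPM after caffeine and 54.5, 39.6 and 52.5 CPM in WT mice. Its Tg4-42 groups did not overlap, whereas the highest caffeine-treated and the lowest WT mouse were both at 39.6 CPM, and the log2 fold change was -0.94 ± 0.19 (adjusted p = 0.0405, edgeR).

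The other type II genes did not pass the adjusted threshold. Cdh6, which helps retinal axons match their targets, had the lowest fold change of all members, -1.17 ± 0.32 (adjusted p = 0.107), at 32.3, 25.9 and 41.1 CPM after vehicle and 21.2, 14.0 and 8.83 CPM after caffeine. Cdh7 (-0.84), Cdh20 (-0.81), Cdh22 (-0.80) and Cdh12 (-0.58) had lower values at an unadjusted p between 0.00351 and 0.0233. Cdh8 and Cdh11 were both at -0.24, with adjusted p of 0.44 and 0.311. The exception was Cdh9, known for its role at the synapses of mossy fibres on CA3 neurons: its values were 198, 185 and 143 CPM after vehicle and 199, 217 and 210 CPM after caffeine, all 3 caffeine-treated mice above all 3 vehicle-treated ones, at a log2 fold change of 0.25 ± 0.13 (adjusted p = 0.365). Cdh6, Cdh9, Cdh10, Cdh12 and Cdh18 all lie on chromosome 15. Summed over the class, the level was 1299, 1086 and 1170 CPM after vehicle and 1047, 904 and 809 CPM after caffeine. Cdh19, a glial type II gene, was near the detection floor, at 0.455 and 0.364 CPM on average.

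Upstream sequences were searched for the members with a promoter window, whether or not they differed between these groups. RefSeq promoter windows on GRCm38.p6 were at hand for 23 members, among them 3 called ones (Pcdh18, Cdh10 and Cdh18), and the 250 bases before each start were searched on both strands for 3 motifs: the E-box CACCTG, to which Snail and Zeb repressors of E-cadherin bind, the core TGACG of the cAMP response element, and the GC box GGGCGG. Their 26 windows held an E-box in 15.4%, the cAMP response element core in 15.4% and a GC box in 34.6%, and all 32851 windows in the table in 17.2%, 17.8% and 32.7%. The 3 called members and Celsr3, the gene with the highest fold change in its class, are shown 5′ to 3′ on the strand of the gene, without bases that GENCODE assigns to an exon. Capitals mark matches to any of the 3 motifs, which did not overlap each other in these 4 windows.
Pcdh18 (chr3:49757326-49757566, - strand): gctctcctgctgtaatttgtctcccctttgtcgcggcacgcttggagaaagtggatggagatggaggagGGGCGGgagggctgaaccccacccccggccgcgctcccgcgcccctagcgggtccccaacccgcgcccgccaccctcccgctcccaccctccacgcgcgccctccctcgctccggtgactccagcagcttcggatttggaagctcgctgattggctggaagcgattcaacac
Cdh10 (chr15:18820079-18820328, + strand): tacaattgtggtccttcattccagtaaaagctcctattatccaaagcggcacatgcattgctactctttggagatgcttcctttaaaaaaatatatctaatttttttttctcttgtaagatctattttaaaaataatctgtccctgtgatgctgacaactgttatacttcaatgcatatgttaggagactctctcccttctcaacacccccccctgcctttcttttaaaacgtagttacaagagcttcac
Cdh18 (chr15:23036213-23036454, + strand): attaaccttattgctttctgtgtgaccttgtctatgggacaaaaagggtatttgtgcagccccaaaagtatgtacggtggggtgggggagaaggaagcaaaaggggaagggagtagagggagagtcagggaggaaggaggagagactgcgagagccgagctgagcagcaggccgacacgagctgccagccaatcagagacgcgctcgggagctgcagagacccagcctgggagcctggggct
Celsr3 (chr9:108825795-108826044, + strand): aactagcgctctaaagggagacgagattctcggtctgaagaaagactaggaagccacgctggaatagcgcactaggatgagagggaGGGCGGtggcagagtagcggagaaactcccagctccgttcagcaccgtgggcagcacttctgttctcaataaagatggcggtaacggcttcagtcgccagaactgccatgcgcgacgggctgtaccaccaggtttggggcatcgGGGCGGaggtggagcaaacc

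In these windows Pcdh18 held 1 GC box, 181 bases before its start, and Celsr3 held 2, at 164 and 20 bases, while Cdh10 and Cdh18 held none of the 3 motifs. The windows also differed in base composition, at 68.0% G and C for Pcdh18, 58.0% for Cdh18, 58.0% for Celsr3 and 36.8% for Cdh10. The median over all windows outside chromosome 18 was 52.4%. The windows of Cdh10 and Cdh18 lie within the gene body as GENCODE annotates it, since both genes have starts further upstream.

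Cdh13 (ENSMUSG00000031841, chr8:118283733-119324921, + strand) encodes T-cadherin, a cadherin without a cytoplasmic tail that is anchored by a lipid and binds adiponectin. It had 185, 167 and 213 CPM after vehicle, 110, 128 and 98.8 CPM after caffeine and 151, 140 and 164 CPM in WT mice. The 3 groups did not overlap: vehicle-treated Tg4-42 mice were the highest, WT mice intermediate and caffeine-treated mice the lowest. The fall by 40.3% between the Tg4-42 groups passed the threshold (log2 fold change -0.74 ± 0.13, adjusted p = 0.0385, edgeR), and the 2 steps to WT mice did not (adjusted p = 1.00 and 0.14). Of the pair that forms the tip links of hair cells, Pcdh15 was abundant, at 113, 106 and 123 CPM after vehicle and 64.2, 94.0 and 50.8 CPM after caffeine (log2 fold change -0.71 ± 0.20, adjusted p = 0.109), and Cdh23 was at 1.48 and 1.90 CPM on average.

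**Figure D3:**
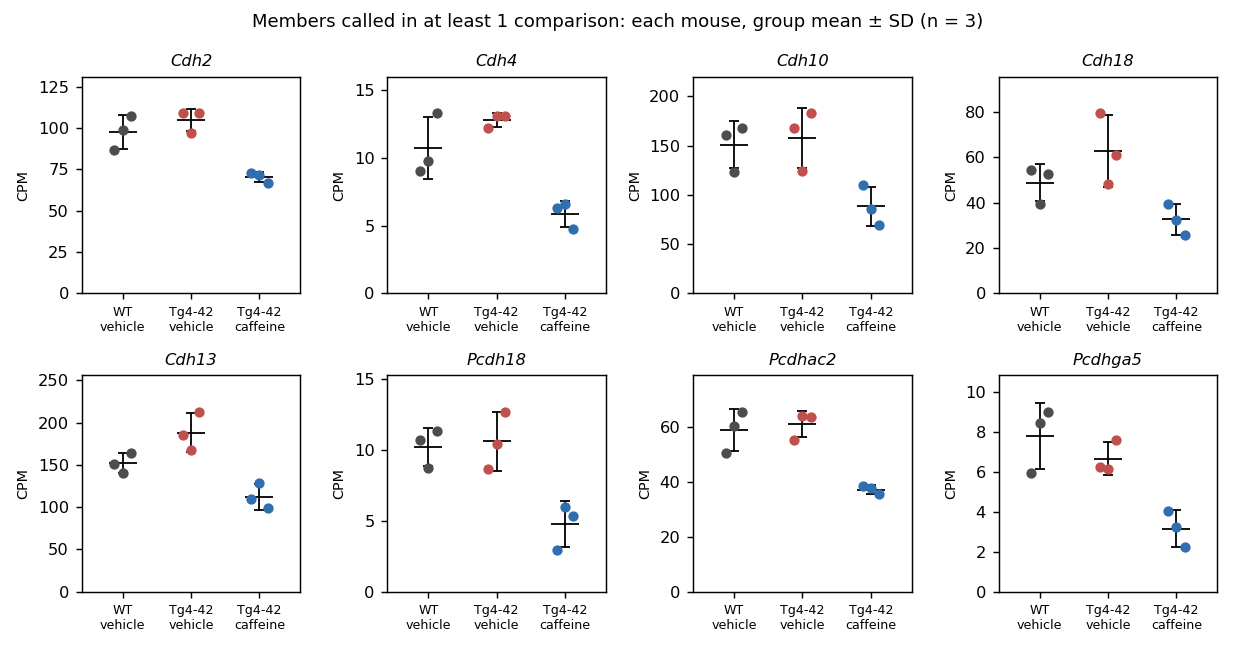
CPM of the 8 members called in at least 1 comparison, for each of the 9 mice (points), with the mean and SD of each group of 3 (bars). Caffeine-treated mice, in blue, are the lowest group in all 8 panels, and for Cdh13 all 3 groups are separate.

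Of the 10 tested non-clustered protocadherins, 8 had lower values after caffeine, the median was -0.35, and Pcdh18 passed the threshold. Pcdh18 (ENSMUSG00000037892, chr3:49743296-49757325, - strand), a delta protocadherin that binds the adaptor Dab1, had 8.64, 10.4 and 12.7 CPM after vehicle and 2.94, 6.00 and 5.37 CPM after caffeine. WT mice had 10.7, 8.70 and 11.3 CPM, so that caffeine-treated mice lay below both other groups, and Pcdh18 fell by 55.1% (log2 fold change -1.15 ± 0.26, adjusted p = 0.0493, edgeR). This call was lost in all 6 fits that left out a mouse.

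The X-linked Pcdh11x had 163, 115 and 130 CPM after vehicle and 90.9, 73.6 and 45.7 CPM after caffeine, without overlap, at a log2 fold change of -0.96 ± 0.23 (adjusted p = 0.0709). Pcdh9 had 4246, 2687 and 2990 CPM after vehicle and 2916, 2353 and 1932 CPM after caffeine (log2 fold change -0.46 ± 0.19, adjusted p = 0.23). The groups of Pcdh9 overlapped, and vehicle-treated mouse 1 stood above the other 8. Lower values at an unadjusted p under 0.05 were also seen for Pcdh7 (-0.56) and Pcdh10 (-0.42). Pcdh20 (-0.27), Pcdh1 (-0.19) and Pcdh17 (-0.01) did not reach it. The 2 genes with higher values were Pcdh19, whose loss on the X chromosome causes epilepsy in girls, at 0.21 ± 0.12 (adjusted p = 0.427), and Pcdh8, the activity-regulated arcadlin that takes N-cadherin off the synaptic surface, at 0.31 ± 0.21 (adjusted p = 0.494). For Pcdh8 the values were 60.9, 102 and 66.3 CPM after vehicle and 83, 83.8 and 119 CPM after caffeine, which overlap.

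Of the 3 Celsr genes, 1 had a lower value after caffeine, and the median was 0.15. Celsr3, which guides the major axon tracts of the forebrain, had 54.9, 52.2 and 41.9 CPM after vehicle and 56.9, 71.6 and 71.3 CPM after caffeine. The groups did not overlap, and the log2 fold change of 0.42 ± 0.16 did not pass the adjusted threshold (adjusted p = 0.189, edgeR). Celsr2 was at 0.15 ± 0.14 (adjusted p = 0.647), and on lane 6 alone its value was -0.05. Celsr1, a gene of progenitors and ependyma, was low, at 1.73 and 1.46 CPM on average.

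Clustered protocadherins had lower values after caffeine in 45 of 54 tested genes, with a median of -0.41 and 22 genes at an unadjusted p under 0.05, all lower. Their summed level was 764, 781 and 723 CPM in vehicle-treated Tg4-42 mice, 620, 560 and 548 CPM in caffeine-treated mice and 690, 712 and 747 CPM in WT mice. Every caffeine-treated mouse thus had a lower summed CPM of clustered protocadherins than any other mouse. A single clustered gene, Pcdhac2, was called. The share called, 1.85%, stood nearer to the 0.881% of all tested genes than the share among the 30 others, of which 6 were called. The medians of the clustered genes and the others were close, at -0.41 and -0.44. An unadjusted p under 0.05 was found for 40.7% of the clustered genes, 56.7% of the others and 17.0% of all tested genes.

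C-type genes, which are expressed without the random choice of the other clustered genes, had lower values in 5 of 5 members, with a median of -0.57. Pcdhac2 (ENSMUSG00000102697, last gene of the alpha array), which serotonergic axons need for their spacing, had 55.4, 63.8 and 63.7 CPM after vehicle, 38.5, 37.8 and 35.5 CPM after caffeine and 50.4, 60.3 and 65.6 CPM in WT mice. The caffeine-treated mice lay close together and below the other 6, and Pcdhac2 fell by 39.0% (log2 fold change -0.71 ± 0.13, adjusted p = 0.0385, edgeR). Pcdhgc5, at the end of the gamma array, had 88.9, 92.4 and 86.3 CPM after vehicle and 68.6, 44.7 and 56.9 CPM after caffeine (-0.65 ± 0.15, adjusted p = 0.0566). Pcdhgc4, required for the survival of many neurons, had 28.9, 34.6 and 36.0 against 23.0, 23.4 and 20.9 CPM (-0.57 ± 0.17, adjusted p = 0.118). These 3 most abundant C-type genes did not overlap between the Tg4-42 groups. Pcdhac1 (-0.13 ± 0.22) and Pcdhgc3 (-0.25 ± 0.35) did overlap.

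In the gamma array, gamma A genes had a median of -0.69 (9 of 11 lower, 7 at an unadjusted p under 0.05) and gamma B genes one of -0.12 (4 of 6 lower, 0 at an unadjusted p under 0.05), and the difference between the 2 kinds was not tested. Pcdhga5 (-1.07 ± 0.26, adjusted p = 0.0688) and Pcdhga4 (-0.99 ± 0.24, adjusted p = 0.0649) had the lowest log2 fold changes of the array. Pcdhga4 had 12.3, 15 and 11.8 CPM after vehicle and 8.66, 6.14 and 4.91 CPM after caffeine. Alpha genes had a median of -0.39 (8 of 11 lower) and beta genes one of -0.35 (19 of 21 lower). Of the beta genes, which have single coding exons and no constant part, Pcdhb9 was the most abundant, at 53.9, 58.5 and 54.9 CPM after vehicle and 48.8, 34.5 and 36.3 CPM after caffeine (-0.49 ± 0.15, adjusted p = 0.123).

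**Figure D4:**
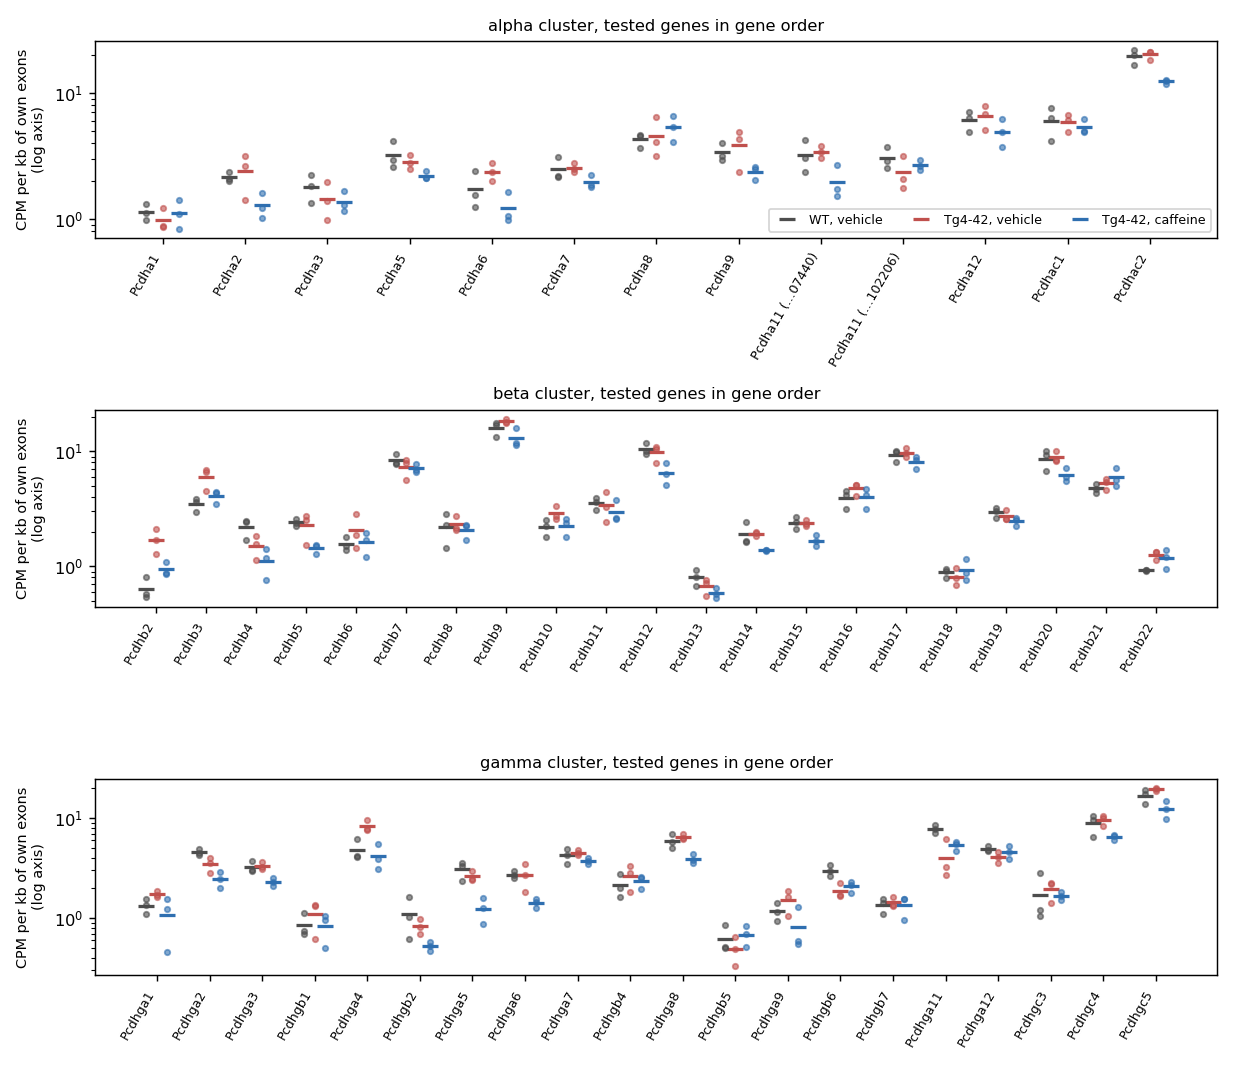
Level of the tested clustered protocadherins in CPM per kb of own exons (log axis), in gene order along the alpha, beta and gamma arrays. Points are single mice and dashes group means, in grey for WT, red for vehicle-treated and blue for caffeine-treated Tg4-42 mice, and the C-type genes Pcdhac2 and Pcdhgc5 at the array ends reach the level of the strongest beta gene, Pcdhb9.

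Many cadherin genes are long, so the members were set beside all tested genes of like span. Among all tested genes that span at least 300 kb the median log2 fold change was -0.06 (539 genes), against -0.65 for the 10 members of that span. Of these members 3 were called lower, where 2.6% of all genes of that span were. Between 100 and 300 kb the medians were -0.02 for all 1780 genes, -0.69 for 10 members outside the clusters and -0.51 for 24 clustered genes. From 10 to 100 kb the members lay closer to all genes. The medians there were -0.03 for all 9043 genes, -0.11 for 8 members outside the clusters and -0.13 for 9 clustered genes. Below 10 kb, where 21 beta genes lie, they were 0.04 for all genes, -0.35 for the beta genes and 0.02 for 2 members outside the clusters.

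The intracellular partners of these receptors were listed as well. Of 11 catenins and junction linkers, 5 had higher and 6 lower values (median -0.01), and 0 were called by edgeR (4 at an unadjusted p under 0.05). The neuronal alpha-catenin Ctnna2 was at -0.19 ± 0.11 (adjusted p = 0.392), beta-catenin (Ctnnb1) at 0.11 ± 0.12 (adjusted p = 0.69) and delta-catenin (Ctnnd2) at 0.10 ± 0.11 (adjusted p = 0.712). Of 10 tested planar polarity partners of Celsr proteins, 9 had higher values (median 0.25) and 0 were called (3 at an unadjusted p under 0.05), and Fzd3, the Frizzled that works with Celsr3 in axon guidance, was the exception at -0.44 ± 0.17 (adjusted p = 0.198).

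All 10 genes of protocadherin signalling, the WAVE complex and focal adhesion kinases, had higher values, with a median of 0.15, and 2 were called. Ptk2b, the kinase Pyk2 that binds protocadherin tails, had means of 465 and 806 CPM (log2 fold change 0.80 ± 0.15, adjusted p = 0.0385, edgeR). Wasf1, the neuronal WAVE subunit, had means of 171 and 257 CPM (0.59 ± 0.13, adjusted p = 0.0497, edgeR). The 11 regulators of promoter choice in the clusters had a median of 0.02 and 0 calls (1 at an unadjusted p under 0.05). This gene was Ctcf, the insulator protein that loops enhancers to the chosen promoters, at 0.26 ± 0.12 (adjusted p = 0.271), while the cohesin subunit Rad21 was at -0.03 ± 0.15 and the repressor Smchd1 at -0.07 ± 0.12. Among 11 other tested proteins with cadherin repeats the median was -0.10, and Clstn3, a calsyntenin that organises synapses, was called, with means of 672 and 377 CPM (-0.83 ± 0.16, adjusted p = 0.0385, edgeR).

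Between vehicle-treated Tg4-42 and WT mice, which addressed the effect of the transgene, 0 of the 84 members were called by edgeR, where 0.0979% of all tested genes were. DESeq2 called 1, Pcdhb2. Between the Tg4-42 groups it called a larger share of all genes than edgeR (2.42% against 0.881%), and its share here is not given. An unadjusted p under 0.05 was found for 8 members against 2.74% of all tested genes, 6 higher and 2 lower. Higher values were found for 58 of the 84 members and for 8770 of all 17361 tested genes. The median of the members was 0.08 where that of all tested genes was 0.00, and all 10 non-clustered protocadherins were higher. Long genes in general also leaned higher: 29.7% of all genes spanning at least 300 kb were lower (median 0.07), as was 1 of the 10 members of that span (median 0.26). Between 100 and 300 kb 41.4% of all genes were lower (median 0.04), with medians of 0.09 for members outside the clusters and 0.07 for clustered genes. Pcdhb2, near the start of the beta array, had 2.27, 1.51 and 1.61 CPM in WT mice and 4.75, 5.96 and 3.61 CPM in vehicle-treated Tg4-42 mice, with 3.08, 2.42 and 2.46 CPM after caffeine. The 3 groups did not overlap, and the log2 fold change between the vehicle groups was 1.42 (adjusted p = 0.166, edgeR).

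Its neighbour Pcdhb3 had 11.2, 14.6 and 13.7 CPM in WT and 25.8, 25 and 17.0 CPM in vehicle-treated Tg4-42 mice (0.78, adjusted p = 0.486), with 16.9, 16.5 and 13.1 CPM after caffeine. Pcdhga4 was at 0.80, Pcdh11x at 0.51 and Pcdhb22 at 0.45, each with an adjusted p of 1.00. In the other direction, Pcdhga11 had 9.71, 8.96 and 10.7 CPM in WT and 7.67, 4.10 and 3.37 CPM in vehicle-treated Tg4-42 mice (-0.98, adjusted p = 0.75), and Pcdhgb6 was at -0.68 (adjusted p = 1.00). The groups of Pcdhb3 and Pcdhga11 did not overlap, but no value reached the adjusted threshold. CA1 markers summed to 568 to 751 CPM in WT and 542 to 653 CPM in vehicle-treated Tg4-42 mice, with 5 of 7 lower (median -0.12). All 12 interneuron markers had higher values than in WT mice (median 0.26, 2 at an unadjusted p under 0.05). The 8 microglial markers were also all higher (median 0.32). Of the 14 dentate granule cell markers 9 were lower (median -0.02), and of the 10 oligodendrocyte markers 5 (median 0.0). The part of these markers in the values of the members was not tested.

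Caffeine-treated Tg4-42 mice were also compared with WT mice. This comparison shares its caffeine-treated mice with the one above, so the values are not a second measurement of caffeine. Of the 84 members, 2 were called, both lower, where 0.415% of all tested genes were called: Pcdhac2 at -0.66 (adjusted p = 0.0356, edgeR) and Pcdhga5 (ENSMUSG00000103567) at -1.30 (adjusted p = 0.0408, edgeR). Pcdhga5 had 5.95, 8.45 and 9.04 CPM in WT mice, 6.27, 6.15 and 7.62 CPM in vehicle-treated and 4.04, 3.24 and 2.23 CPM in caffeine-treated Tg4-42 mice. Caffeine-treated mice were below both other groups, and the vehicle groups overlapped. Both calls were lost without WT mouse 2, WT mouse 3, caffeine-treated mouse 2 or caffeine-treated mouse 3, and with lane as a covariate.

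Lower values were found for 65 of 84 members, with a median of -0.30, and for 51.5% of all tested genes. A lower value at an unadjusted p under 0.05 was found for 30 members, against 8.65% of all tested genes. For the other genes called against vehicle-treated Tg4-42 mice, the values against WT mice were -0.47 for Cdh2, -0.86 for Cdh4, -0.77 for Cdh10, -0.43 for Cdh13, -0.58 for Cdh18 and -1.09 for Pcdh18, with adjusted p between 0.0727 and 0.17. Cdh6 was at -1.09 (adjusted p = 0.145), Pcdhgb2 at -1.05 (adjusted p = 0.173) and Pcdhb4 at -0.97 (adjusted p = 0.109). Higher values at an unadjusted p under 0.05 were found for Pcdh8 (0.54, adjusted p = 0.249), Cdh9 (0.37, adjusted p = 0.206) and Pcdh19 (0.29, adjusted p = 0.286). Cell type markers moved here too. All 14 dentate granule cell markers were higher than in WT mice (median 0.64). Of the 6 CA3 markers 4 were higher (median 0.30), and Spock1 (-0.41) and Coch (-1.36) were lower. All 8 astrocyte markers (median -0.73), all 10 oligodendrocyte markers (median -0.39) and 10 of 12 interneuron markers (median -0.22) were lower. So were 6 of 8 microglial markers (median -0.34) and 6 of 8 markers of subiculum and neocortex neurons (median -0.33). Of the 7 CA1 markers 5 were lower (median -0.22), and edgeR called Wfs1 lower (-0.77, adjusted p = 0.0408). The part of these cell type markers in the values of the members was not tested.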

How the data were processed

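The authors sorted NeuN-stained nuclei, prepared libraries with a low-input SMART-Seq kit that does not mark strand, aligned 50-base single-end reads to mm10 with STAR and deposited featureCounts exon counts per gene, without normalization. Symbols and positions for 48349 of 48709 genes came from GENCODE M21 (GRCm38). Counts were tested with edgeR 4.0.16 in R 4.3.3: filterByExpr (minimum count 10, total 15), TMM, robust quasi-likelihood fits of all 9 libraries, group contrasts, and Benjamini-Hochberg adjustment at 0.05 over 17361 genes. The common biological coefficient of variation was 0.163. Levels per kb used exonic bases that no other gene shares, since reads of overlapping genes on opposite strands cannot be told apart. Alternatives were DESeq2 1.42.0, RLE factors, other filters, lane, GC content, length, only the groups compared, each mouse left out and, chosen after seeing the data, lane 6 alone. Replicates differed beyond sampling noise (chi-square per gene 8.98 to 21.1). The members and gene lists were chosen with earlier results of these data known. Named were members called in any comparison, in each comparison the 5 largest increases and decreases at an unadjusted p under 0.05, the 10 highest levels in WT mice, and members and partners set by role. Cdh1, Cdh5, Cdh15, Cdh19, Cdh22 and the untested members were named after their values were seen. Promoter windows came from RefSeq without those on chromosome 18, and windows of Cdh2, Cdh4, Cdh13 and the clustered genes were not used here.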

Additional observations from a re-analysis of the deposited data

How the results depend on the processing

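Between caffeine-treated and vehicle-treated Tg4-42 mice, 7 members were called, and 5 to 9 with RLE factors, a mean count of at least 50, GC or length correction, or only the 2 groups compared. The count was 21 without a filter on low counts, 18 with DESeq2, 0 with lane as a covariate (39 at an unadjusted p under 0.05) and 0 on lane 6 alone (21), an alternative chosen after seeing the data. The shares of all fitted genes called moved the same way, from 0.881% to 3.2%, 2.42%, 0.0518% and 0%. The share of all genes at an unadjusted p under 0.05 was not counted for any alternative fit. In the main fit of this comparison it was 17.0%. Leaving out 1 mouse gave 0 to 15 calls: 15 without caffeine-treated mouse 1, 6 without vehicle-treated mouse 2, 2 (Cdh13 and Pcdh15) without caffeine-treated mouse 2, and 0 without caffeine-treated mouse 3, vehicle-treated mouse 1 or vehicle-treated mouse 3 (30, 35 and 32 at an unadjusted p under 0.05). The median of -0.42 ranged from -0.53 to -0.35 with a mouse left out. For vehicle-treated Tg4-42 against WT mice, 3 members were called without a filter (Pcdhb2, Pcdhb3 and Pcdhga11) and 1 with DESeq2. Both settings also called larger shares of all genes between the Tg4-42 groups, and their shares here are not given. The median of 0.08 for vehicle-treated Tg4-42 against WT mice was 0.14 on lane 6 and 0.05 to 0.13 with a mouse left out. The median of the clustered genes, 0.06, ranged from -0.01 to 0.07, and that of the others, 0.12, was 0.20 on lane 6. For caffeine-treated Tg4-42 against WT mice, 2 calls became 15 without a filter, 11 with DESeq2, 4 with GC correction, 0 with lane as a covariate (31 at an unadjusted p under 0.05), 0 on lane 6 (11) and 0 to 7 with a mouse left out (all genes 0.415%, then 2.79%, 1.79%, 0.876%, 0.242%, 0.097% and 0.0901% to 1.62%), and the median of the clustered genes, -0.31, ranged from -0.45 to -0.27. Celsr2 changed sign on lane 6 (-0.05), and Pcdh17, at -0.01, was 0.00 without a filter, 0.01 with GC correction and -0.12 to 0.08 with a mouse left out. Of 745 alternative values of named genes, 634 kept direction and call, 59 lost the call, 45 gained it and 7 changed sign. The cause was not tested. The sample titles carry no replicate numbers that the groups share, so mice were not paired by number, and lane was the only block fitted. With 3 mice a group and floors of 0.189 to 0.324 CPM, changes of weakly expressed members such as Cdh19 were not detectable at this depth.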
